A study of Homo sapiens with 8 samples.

Results

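The genes described here build, fold, sort and destroy proteins in the endoplasmic reticulum (ER). They were read in MM1.S and in NCI-H929, both established lines of human multiple myeloma, a cancer of plasma cells. Members were 52 fixed gene symbols, taken wherever a row of the deposited array table carried that symbol in the platform annotation, with the row of highest mean level kept for a gene. Of the 52, 29 had such a row and all 29 passed the filter on low levels, out of 14884 named genes of which 12734 were tested. The other 23 are not analysed here, among them HSPA5 (BiP), HSP90B1 (GRP94), DNAJB9, DNAJB11, DNAJC3, HERPUD1, SYVN1, EDEM1, EDEM2, EDEM3, OS9, SEC61G, SRPRB, the PDI enzymes PDIA3, PDIA4, PDIA5, PDIA6, P4HB and DNAJC10, and SSR1, SSR2, SSR3 and SSR4. The measured members were 8 of 13 chaperones and co-chaperones, 2 of 8 disulfide enzymes, 5 of 11 factors of ER-associated degradation, 10 of 16 parts of the translocon, the signal recognition particle receptor and signal peptidase, and 4 of 4 sensors and membrane-bound transcription factors. Coverage of the disulfide enzymes was therefore limited to ERO1A and ERO1B.

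The cells of each line held a scramble hairpin as control or a short hairpin against SIRT6 (shSIRT6), a NAD-dependent deacetylase of chromatin. The 4 groups were MM1.S scramble, MM1.S shSIRT6, NCI-H929 scramble and NCI-H929 shSIRT6, with 2 arrays each and 8 in all. The control cells therefore also carried a hairpin construct, and each line is a single source of cells. Values are RMA log2 levels on a whole-transcript Affymetrix array. The labels speak of duplicates and name no separate cultures. The p-values therefore rest on how far these arrays differ within a group, a spread that may be only technical.

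Antibody-secreting cells push large amounts of immunoglobulin through the ER. A new chain is guided to the membrane by the signal recognition particle and its receptor, passes the SEC61 channel, loses its signal peptide to signal peptidase, and is then folded by lectin chaperones and other chaperones while ERO1 enzymes and protein disulfide isomerases form its disulfide bonds. Chains that do not fold are pulled back to the cytosol through the SEL1L and Derlin complex, with the ATPase VCP, and degraded. When unfolded chains accumulate, the sensors ERN1 (IRE1), ATF6 and EIF2AK3 (PERK) start the unfolded protein response, which raises many of these genes through promoter elements bound by ATF6 and XBP1.

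Across all rows the array medians ran from 3.88 to 3.97. SIRT6 lay at 6.09 and 5.88 with scramble and at 5.60 and 5.78 with shSIRT6 in MM1.S, and at 6.53 and 6.97 against 6.25 and 6.31 in NCI-H929. In both lines its arrays were lower with the hairpin without overlap, but neither difference passed the test (limma, adjusted p = 0.355 and 0.276), so the construct labels are only weakly checked. Of 10 plasma cell markers 7 had a row, with a mean level per array of 9.37 to 9.69, a mean over different probes. Among them POU2AF1 read 5.19 to 5.43 in MM1.S, where the B cell marker CR2 read 6.22 to 6.77. The summed lists of other cell types lay lower, with mean levels per array of 3.69 to 4.33 for 4 of 6 B cell markers, 4.28 to 4.64 for 4 of 8 T and NK cell markers, 3.41 to 3.70 for 5 of 6 monocyte and macrophage markers and 2.20 to 2.46 for 2 of 6 stromal markers. SDC1 (CD138), a surface marker of plasma cells, rose in MM1.S with the hairpin by 0.52 ± 0.0908 (SE; limma, adjusted p = 0.0461), and its part in the results below was not tested. It was the 1 plasma cell marker called of 7. Of the 7, 3 had a positive and 4 a negative difference in MM1.S, with a median of −0.015. IRF4 and CD38 had differences of −0.325 and −0.275 (limma, adjusted p = 0.121 and 0.256).

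Promoter elements of the unfolded protein response were looked for in the members. The 4 promoters shown belong to members called in a comparison below. SEL1L and ERO1B were called with the hairpin in MM1.S, and SDF2L1 and HYOU1 between the lines. Called members with a lower p, such as UGGT2, are not shown. Windows came from RefSeq (GRCh38.p14), 250 bases before to 50 bases after each start, and 47 of the 52 symbols, 25 of the 29 measured ones, matched. Both strands were searched. The ER stress response element (CCAAT, any 9 bases, then CCACG) lay in 27 of 35116 windows, or 0.0769%. Counted per gene, with a match in at least 1 window, it lay in 25 of 27305 symbols, or 0.0916%. By that count it lay in 7 of the 47 members, or 14.9%: CALR, CANX, CRELD2 and ERO1B among the measured ones, and HSPA5, HSP90B1 and PDIA6. The element II (ATTGG, any 1 base, then CCACG) lay in 0.0541% of windows, in 0.0696% of symbols and in 3 of the 47 members, HYOU1, SDF2L1 and HERPUD1. The core of the UPR element (TGACGTGG) lay in 0.729% of windows, in 0.927% of symbols and in 6 of the 47 members. These were HYOU1, SEC62, VCP, DNAJC10, SSR3 and SSR4, and in HYOU1 it overlapped an element II. The CCACG box alone lay in 38.1% of all windows. It lay in at least 1 window of 36 of the 47 members, or 76.6%. These shares are not alike, and the share of all symbols with the box was not counted. Many of the members are genes known to be raised through such elements. Their shares were therefore partly fixed by the choice of genes and are not a test. A match describes letters in a window and does not show a bound site.

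The stretches below are the 250 bases that end at the start site, 5′ to 3′ on the gene's strand, with the elements in capitals. ERO1B (chr1:236281959-236282208, minus strand) holds an ER stress response element in reverse orientation at −243 to −225 from the start. SDF2L1 (chr22:21642052-21642301, plus strand) holds an element II in reverse orientation at −188 to −178. HYOU1 (chr11:119057206-119057455, minus strand) holds element II in reverse orientation at −185 to −175 and again at −79 to −69, with the UPR core in forward orientation at −188 to −181. SEL1L (chr14:81533854-81534103, minus strand) showed none of the full elements in this window, and its capitals mark a CCACG box read on the other strand. With the letters after it, tccaac, the box differs from a reverse element II only in the last letter. Boxes outside a full element are marked in SEL1L only, and ERO1B holds such a box too.
ERO1B: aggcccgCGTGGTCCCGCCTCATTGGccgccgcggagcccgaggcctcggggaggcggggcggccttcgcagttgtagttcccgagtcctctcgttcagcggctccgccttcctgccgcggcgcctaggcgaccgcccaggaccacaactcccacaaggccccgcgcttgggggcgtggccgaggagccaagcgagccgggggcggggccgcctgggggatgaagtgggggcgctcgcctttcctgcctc
SDF2L1: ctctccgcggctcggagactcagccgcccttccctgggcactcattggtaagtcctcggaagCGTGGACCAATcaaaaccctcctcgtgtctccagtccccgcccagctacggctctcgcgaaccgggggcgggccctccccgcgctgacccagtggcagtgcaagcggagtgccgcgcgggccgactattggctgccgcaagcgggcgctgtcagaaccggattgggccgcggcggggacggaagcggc
HYOU1: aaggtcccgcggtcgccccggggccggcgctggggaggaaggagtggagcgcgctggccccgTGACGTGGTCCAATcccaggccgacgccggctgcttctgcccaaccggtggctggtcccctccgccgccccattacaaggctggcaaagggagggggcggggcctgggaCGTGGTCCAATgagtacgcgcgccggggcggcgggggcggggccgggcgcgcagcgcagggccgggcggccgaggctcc
SEL1L: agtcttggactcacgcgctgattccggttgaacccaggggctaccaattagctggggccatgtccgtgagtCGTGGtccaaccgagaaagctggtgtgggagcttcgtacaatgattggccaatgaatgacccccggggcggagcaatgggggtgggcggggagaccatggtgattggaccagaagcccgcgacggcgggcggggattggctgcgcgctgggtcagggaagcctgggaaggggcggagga

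The first comparison asked what the SIRT6 hairpin did to these genes in MM1.S. A gene was called where limma gave a p below 0.05 after Benjamini-Hochberg adjustment over the 12734 genes tested. SEL1L, the adaptor that holds the HRD1 ubiquitin ligase complex of ER-associated degradation together, and ERO1B, an oxidase that recharges protein disulfide isomerases, fell, and no member rose (0). That is 2 of 29 members, both lower, where 1.33% of all genes tested were called in either direction and 1.12% were called lower. The median difference of the members was −0.17, against 0.005 for all genes tested. Of the 29, 23 had a negative difference and 5 a positive one, beside 6252 negative and 6443 positive among all 12734 genes. An unadjusted p below 0.05 was seen for 11 of the 29 and for 2493 of all genes.

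**Figure D1:**
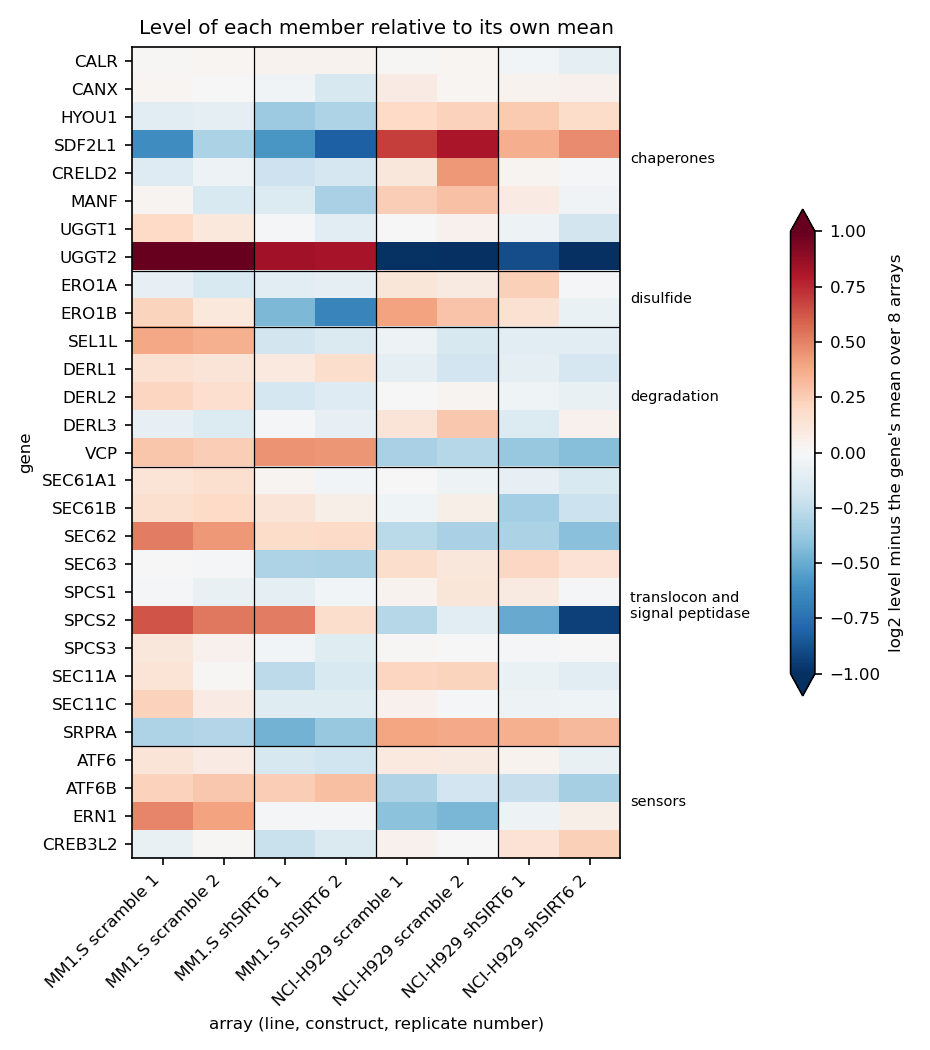
Heat map of the log2 level of each of the 29 measured members on the 8 arrays (columns, by line, construct and replicate number), as the difference from that gene's own mean, with the colour scale ending at −1 and 1. UGGT2 and SDF2L1 separate the lines on every array, and ERN1 with shSIRT6 lies lower than with scramble in MM1.S but higher in NCI-H929.

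SEL1L (row 16795394) lay at 11.57 and 11.54 on the MM1.S scramble arrays and at 11.00 and 11.04 with shSIRT6. The groups were separated by far more than the arrays of a group. The difference was −0.54 ± 0.0925 (SE; 95% interval −0.75 to −0.32; limma, adjusted p = 0.0455). ERO1B (row 16700911) lay at 5.64 and 5.52 with scramble and at 4.97 and 4.76 with shSIRT6, again without overlap, and its difference was −0.71 ± 0.125 (interval −1.01 to −0.42; limma, adjusted p = 0.047). Both calls sat close to the threshold. Leaving out any 1 of the 8 arrays ended both, while the difference stayed between −0.56 and −0.51 for SEL1L and between −0.82 and −0.61 for ERO1B. With limma's trend of the variance on the mean level, 11 members were called, 10 lower and VCP higher, but 7.48% of all genes were then called too.

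Among the 8 chaperones and co-chaperones none was called in MM1.S (0), with a median of −0.19 and 7 of 8 differences negative. CALR (calreticulin), a lectin chaperone of newly made glycoproteins, read 12.19 and 12.20 with scramble and 12.22 and 12.22 with shSIRT6, a difference of 0.025 ± 0.089 (interval −0.18 to 0.23). Its membrane-bound relative CANX (calnexin) read 11.56 and 11.54 against 11.50 and 11.38. UGGT2, which with UGGT1 tags misfolded glycoproteins for another round of folding, showed the widest gap of the group, with 8.35 and 8.19 against 7.80 and 7.78 (difference −0.48 ± 0.138, limma, adjusted p = 0.13). UGGT1 lay at 9.77 and 9.68 against 9.56 and 9.47. HYOU1 (GRP170), a nucleotide exchange factor for BiP, lay at 10.05 and 10.07 against 9.80 and 9.85 (−0.23 ± 0.0909, limma, adjusted p = 0.219). The remaining 3, SDF2L1, CRELD2 and MANF, are induced by ER stress, and they had differences of −0.23, −0.10 and −0.17. In 5 of the 8 both shSIRT6 arrays lay below both scramble arrays, as they did for 26.3% of all genes, and the arrays of MANF and SDF2L1 overlapped.

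ERO1A, the other ERO1 oxidase, stood beside ERO1B with 8.39 and 8.32 in MM1.S scramble and 8.36 and 8.38 in shSIRT6. Its difference was 0.015 ± 0.11 (limma, adjusted p = 0.956). The arrays overlapped, unlike those of ERO1B, and the difference between the paralogs was not itself tested.

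In ER-associated degradation, SEL1L was the single member called of 5, and the median was 0.00. DERL2, a rhomboid-like protein of the retrotranslocation complex, read 9.38 and 9.33 with scramble and 8.99 and 9.03 with shSIRT6 (−0.34 ± 0.0891, limma, adjusted p = 0.105), without overlap. The arrays of its relatives overlapped, with DERL1 at 10.78 and 10.76 against 10.73 and 10.81, and DERL3 at 8.39 and 8.33 against 8.46 and 8.39. VCP (p97), the ATPase that extracts substrates, lay higher with shSIRT6, at 11.32 and 11.31 against 11.15 and 11.12, a difference of 0.18 ± 0.0886 that did not pass (limma, adjusted p = 0.31).

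All 10 measured parts of the translocation and signal peptidase machinery had a negative difference in MM1.S, with a median of −0.19 and a range from −0.31 to −0.02, yet none was called (0 of 10; 4 at an unadjusted p below 0.05). SEC63, a membrane partner that recruits BiP to the channel, lay at 9.50 and 9.48 with scramble and at 9.19 and 9.18 with shSIRT6 (−0.31 ± 0.09, limma, adjusted p = 0.138). SEC62, its partner in post-translational entry, lay at 9.23 and 9.15 against 8.90 and 8.91 (−0.29 ± 0.0945, adjusted p = 0.167). SEC11A and SEC11C, alternative catalytic subunits of signal peptidase, lay at 7.47 and 7.35 against 7.07 and 7.18, and at 11.46 and 11.31 against 11.11 and 11.11 (−0.29 and −0.28, adjusted p = 0.176 and 0.184). For the channel itself, SEC61A1 had a difference of −0.15 and SEC61B of −0.09. In 9 of the 10 the hairpin arrays lay lower without overlap, as did those of 26.3% of all genes, and SPCS1, an accessory subunit at −0.02, was the exception.

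Of the sensors, ERN1, the kinase and endoribonuclease that splices XBP1 mRNA, lay at 9.93 and 9.84 in MM1.S scramble and at 9.43 and 9.42 with shSIRT6. The difference was −0.46 ± 0.0954 (interval −0.68 to −0.24) and did not pass (limma, adjusted p = 0.0683). ATF6, which is cut in the Golgi to release a transcription factor, lay at 10.14 and 10.09 against 9.85 and 9.81 (−0.29 ± 0.0931, interval −0.50 to −0.07, adjusted p = 0.162). CREB3L2, a related membrane-bound factor of secretory cells, lay at 8.55 and 8.64 against 8.40 and 8.48 (−0.16 ± 0.0959, adjusted p = 0.409). ATF6B, the paralog of ATF6, overlapped between constructs at 9.76 and 9.80 against 9.78 and 9.83 (0.025 ± 0.0966, adjusted p = 0.91).

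**Figure D2:**
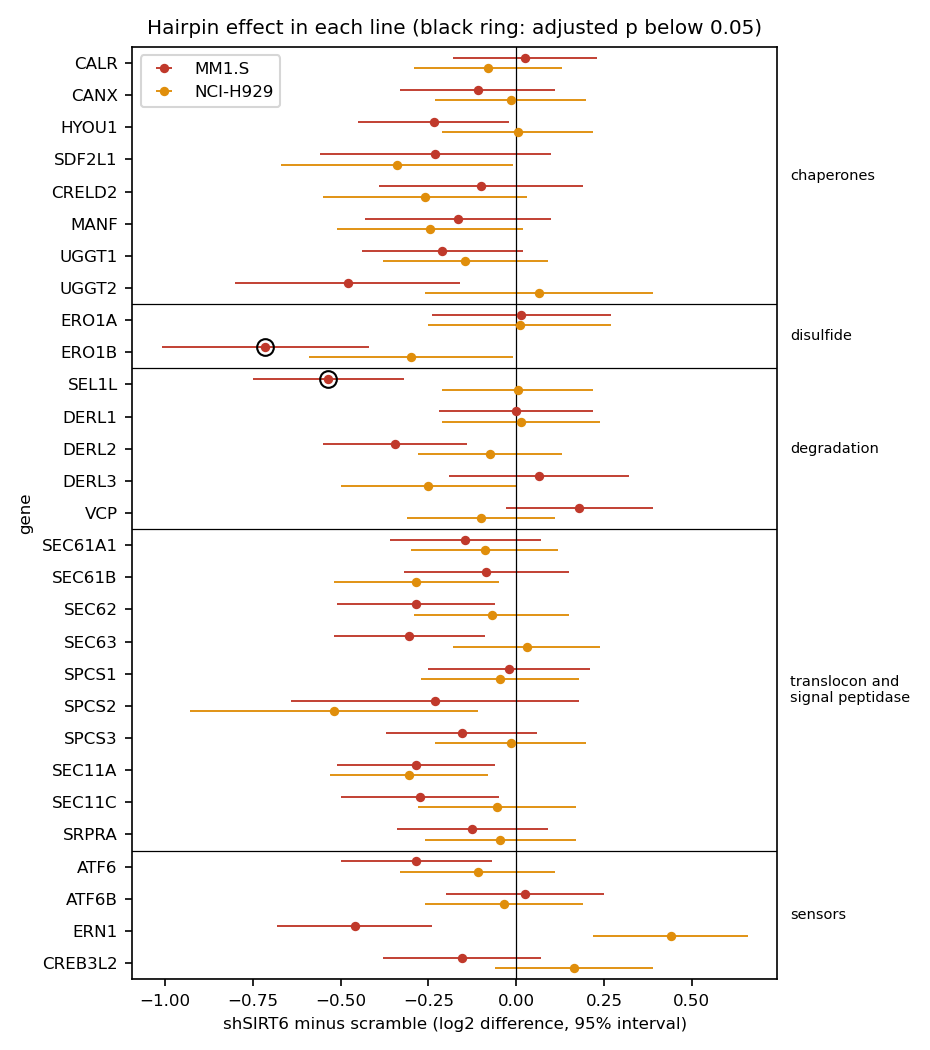
Difference of shSIRT6 minus scramble (log2, horizontal axis) for each measured member in MM1.S (red) and NCI-H929 (orange), with limma's 95% intervals, grouped by role. The 2 ringed points, ERO1B and SEL1L in MM1.S, passed an adjusted p of 0.05, and ERN1 is the member whose intervals lie on opposite sides of 0.

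In NCI-H929 the same comparison called none of the 29 members (0 by limma), and few genes were called at all, 0.0236% of those tested. At an unadjusted p below 0.05 there were 6 members, beside 1846 of all 12734 genes, and the variance trend called 2, ERN1 and SEC61B, beside 1.52% of all genes. The median of the members was −0.07, near that of all genes, −0.045, and after cyclic loess normalization it was 0.008. Without shSIRT6 replicate 1 of NCI-H929 it was −0.115, and without shSIRT6 replicate 2 it was −0.045. ERN1 had the lowest p. Its arrays read 9.03 and 8.98 with scramble and 9.39 and 9.50 with shSIRT6, so both hairpin arrays lay higher, by 0.44 ± 0.0954 (interval 0.22 to 0.66; limma, adjusted p = 0.191).

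Next came 3 parts of the entry and processing machinery, all lower with shSIRT6. SEC11A lay at 7.55 and 7.56 with scramble and at 7.27 and 7.23 with shSIRT6 (−0.31 ± 0.0973, limma, adjusted p = 0.261). SPCS2, a signal peptidase subunit, lay at 8.30 and 8.47 against 8.08 and 7.65 (−0.52 ± 0.174, adjusted p = 0.274), with arrays of a group that differed widely from each other. SEC61B, the small beta subunit of the channel, lay at 9.83 and 9.93 against 9.53 and 9.66 (−0.29 ± 0.0991, adjusted p = 0.278). None of the 3 groups of arrays overlapped.

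The members that were called in MM1.S read otherwise here. SEL1L lay at 11.13 and 11.02 with scramble and at 11.08 and 11.08 with shSIRT6, a difference of 0.005 with an interval of −0.21 to 0.22. ERO1B lay lower on both hairpin arrays, at 5.57 and 5.35 against 5.82 and 5.70 (−0.30 ± 0.125, limma, adjusted p = 0.339). Of the 8 chaperones and co-chaperones, 6 had a negative difference and 2 a positive one, with a median of −0.113. Among all genes tested in NCI-H929, 7430 were negative and 5213 positive. SDF2L1 lay at 7.59 and 7.70 against 7.92 and 8.05 (−0.34 ± 0.139, limma, adjusted p = 0.331), and MANF and CRELD2 had differences of −0.25 and −0.26. HYOU1 overlapped, at 10.42 and 10.34 against 10.36 and 10.39 (difference 0.005), and CALR had a difference of −0.08. DERL3, a Derlin induced by ER stress, had a difference of −0.25 ± 0.108 (limma, adjusted p = 0.348).

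None of the other sensors passed in NCI-H929. ATF6 read 10.11 and 10.10 with scramble and 10.05 and 9.94 with shSIRT6 (−0.11 ± 0.0931, limma, adjusted p = 0.614). That difference was −0.165 without shSIRT6 replicate 1, −0.055 without shSIRT6 replicate 2 and −0.033 after cyclic loess normalization. CREB3L2 read 8.67 and 8.63 against 8.77 and 8.86, higher on both hairpin arrays (0.17 ± 0.0959, adjusted p = 0.466). ATF6B overlapped, at 9.23 and 9.34 against 9.30 and 9.20 (−0.035 ± 0.0966, adjusted p = 0.889), and the sign of that difference turned under both other normalizations.

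**Figure D3:**
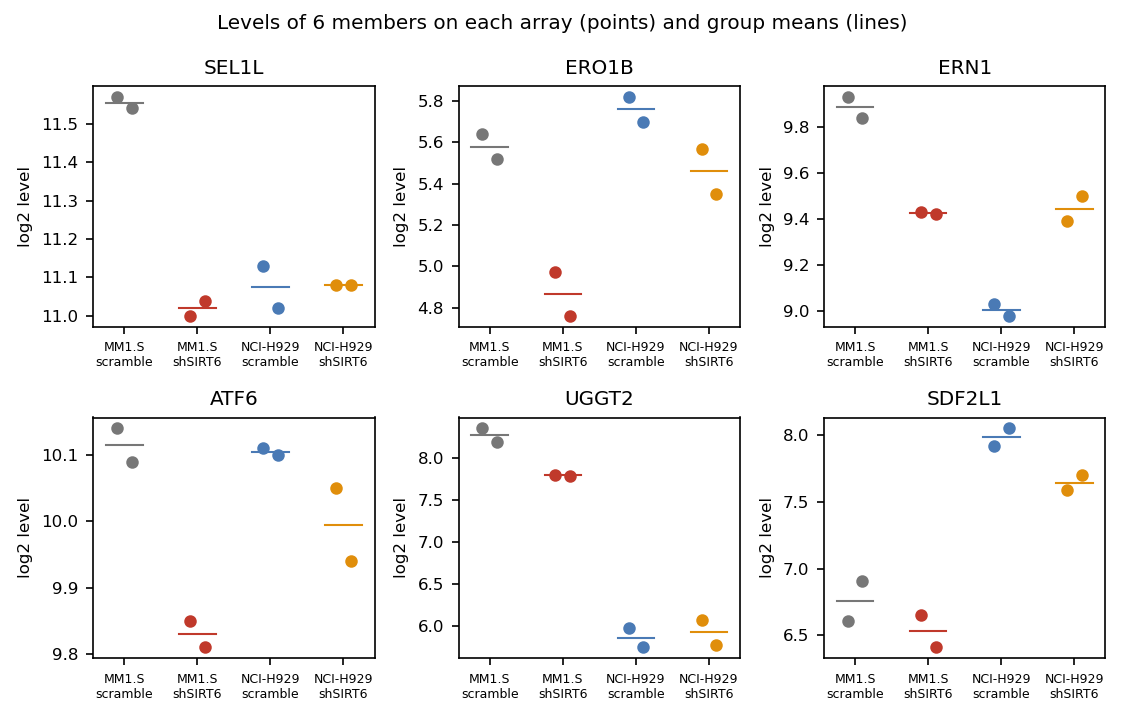
Log2 levels of 6 members on each array (points) with group means (lines), one panel per gene with its own vertical axis that does not start at 0. SEL1L is high only in the MM1.S scramble arrays, ERN1 with shSIRT6 lies below scramble in MM1.S and above it in NCI-H929, and UGGT2 and SDF2L1 separate the lines under both constructs.

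Counted by direction alone, the hairpin arrays lay below the scramble arrays without overlap for 20 of 29 members in MM1.S, where 26.3% of all genes did so, and for 16 of 29 in NCI-H929, where 30% did. The shares of all genes cover every level above the filter, and none was counted among genes of like level or spread. In MM1.S these were 5 of 8 chaperones, 1 of 2 disulfide enzymes, 2 of 5 degradation factors, 9 of 10 translocation genes and 3 of 4 sensors. The counts in NCI-H929 were 5 of 8, 1 of 2, 3 of 5, 6 of 10 and 1 of 4. Lower in both lines were 11 of 29, against 10.5% of all genes: UGGT1, CRELD2, ERO1B, DERL2, SEC61A1, SEC61B, SPCS2, SEC11A, SEC11C, SRPRA and ATF6. The median deviation of the members from their own means was 0.135 and 0.079 on the MM1.S scramble arrays, −0.101 and −0.12 with shSIRT6, 0.039 and 0.027 on the NCI-H929 scramble arrays and −0.043 and −0.066 with shSIRT6. Over all genes it stayed between −0.021 and 0.014. Across the 29 members the hairpin differences of the lines, which share no array, had a Pearson r of −0.09 and a Spearman rho of −0.09, against an r of 0.16 over all genes.

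Averaged over both lines, no member was called (0 by limma), where 0.0864% of all genes were. At an unadjusted p below 0.05 there were 12 members, beside 2711 of all 12734 genes, and the variance trend called 11, all lower, beside 7.15% of all genes. The members' median was −0.14 against −0.023 for all genes, which was −0.047 for the genes above the 50th percentile of level. Of the members 25 were negative and 4 positive, beside 6995 negative and 5720 positive among all genes. ERO1B had the lowest p (−0.51 ± 0.0887, limma, adjusted p = 0.069), then SEC11A (−0.29 ± 0.0688, adjusted p = 0.0925), SEL1L (−0.27 ± 0.0654, adjusted p = 0.102) and DERL2 (−0.21 ± 0.063, adjusted p = 0.135). ATF6 averaged −0.20 ± 0.0659 (adjusted p = 0.158). ERN1, ATF6B and CREB3L2 averaged −0.01, −0.005 and 0.005, whose signs turned with the normalization or with an array left out.

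Whether the hairpin acted differently in the lines was tested by the interaction, NCI-H929 minus MM1.S. None of the 29 members passed (0 by limma), and 0.204% of all genes were called. At an unadjusted p below 0.05 there were 6 members, beside 1763 of all 12734 genes, and the variance trend called 4, ERN1, SEC63, SEL1L and VCP, beside 3.38% of all genes. ERN1 came closest. Its interaction was 0.90 ± 0.135 (interval 0.58 to 1.22; limma, adjusted p = 0.0712), and it was called when genes below the 50th percentile of level were left out. SEL1L followed with 0.54 ± 0.131 (interval 0.23 to 0.85, adjusted p = 0.188), UGGT2 with 0.55 ± 0.195 (adjusted p = 0.289) and SEC63 with 0.34 ± 0.127 (adjusted p = 0.321). For ATF6, CREB3L2 and ATF6B the values were 0.17 ± 0.132, 0.32 ± 0.136 and −0.06 ± 0.137 (adjusted p = 0.596, 0.359 and 0.877).

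The lines themselves differed in many of these genes. With the scramble construct 11 of 29 members were called between NCI-H929 and MM1.S, 3 higher and 8 lower in NCI-H929. This share was like that of all genes tested, of which 38.3% were called, 20.0% higher and 18.3% lower. UGGT2 led, at 8.35 and 8.19 in MM1.S and at 5.97 and 5.74 in NCI-H929, 5.33-fold lower (−2.42 ± 0.138, limma, adjusted p = 1.55e-05). SDF2L1, which forms a complex with the co-chaperone DNAJB11, lay at 6.61 and 6.91 against 7.92 and 8.05 (1.23 ± 0.139, adjusted p = 0.000398). No array of one line came near the other line for either gene.

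ERN1 was also lower in NCI-H929 with scramble (−0.88 ± 0.0954, limma, adjusted p = 0.000317), as were SEC62 (−0.77 ± 0.0945, adjusted p = 0.00057), VCP (−0.57 ± 0.0886, adjusted p = 0.0018), SEL1L (−0.48 ± 0.0925, adjusted p = 0.00481) and ATF6B (−0.50 ± 0.0966, adjusted p = 0.0051). SRPRA, the alpha subunit of the signal recognition particle receptor, was higher, at 11.73 and 11.71 against 11.02 and 11.04 (0.69 ± 0.0907, adjusted p = 0.000787). The 3 remaining calls were SPCS2 and DERL1, lower by −0.78 and −0.29 (adjusted p = 0.0098 and 0.0486), and HYOU1, higher by 0.32 (adjusted p = 0.0281). CRELD2 (0.36, adjusted p = 0.053), MANF (0.34, adjusted p = 0.0547) and DERL3 (0.31, adjusted p = 0.0567) lay just outside the threshold.

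The shSIRT6 arrays gave the same comparison on arrays that the scramble comparison did not use. There 12 of 29 members were called, 6 higher and 6 lower, where 37.9% of all genes were called, 18.4% higher and 19.5% lower. The lowest p again belonged to UGGT2 (−1.87 ± 0.138, limma, adjusted p = 5.23e-05), followed by VCP (−0.84 ± 0.0886, adjusted p = 0.000261), SRPRA (0.77 ± 0.0907, adjusted p = 0.000454) and SDF2L1 (1.11 ± 0.139, adjusted p = 0.000605). SPCS2 (−1.06), HYOU1 (0.56), SEC62 (−0.56) and ATF6B (−0.56) were called as well (adjusted p = 0.00224, 0.00224, 0.00271 and 0.003). These 8 were called with both constructs and in the same direction, 72.7% of the scramble calls and 66.7% of the shSIRT6 calls. The same shares over all genes were not counted, so these say nothing particular about the members. The line differences of the 29 members with the 2 constructs had a Pearson r of 0.90 and a Spearman rho of 0.85, and over all genes r was also 0.90, so this likeness is not particular to the members.

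**Figure D4:**
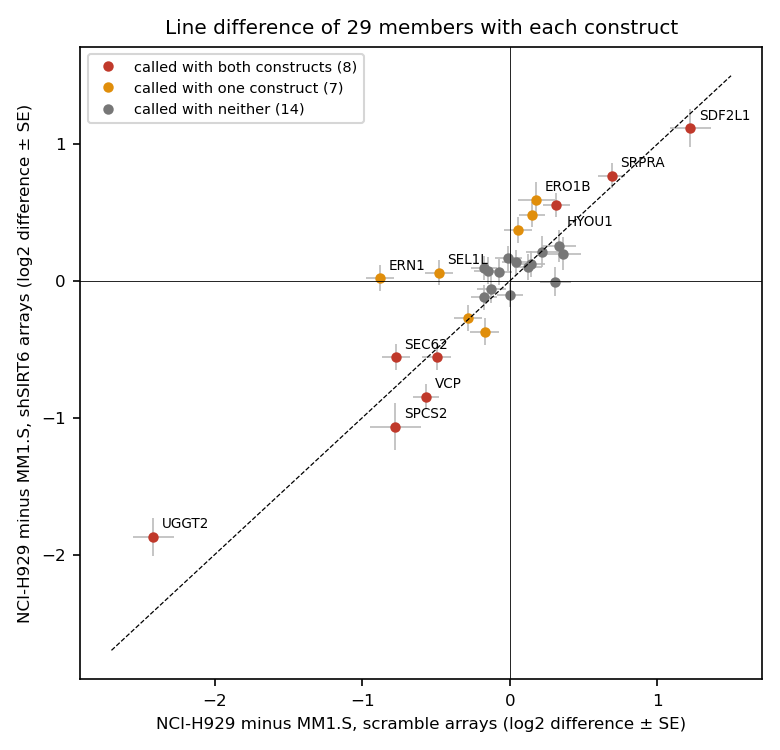
Difference of NCI-H929 minus MM1.S (log2) with scramble (horizontal) and with shSIRT6 (vertical) for the 29 members, with limma's SE as bars and the line of equal values dashed. The 8 red genes were called with both constructs and lie along the diagonal from UGGT2 to SDF2L1, while ERN1 and SEL1L lie near 0 on the vertical axis.

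For ERN1, SEL1L and DERL1 the line difference was called with scramble only. With shSIRT6 the ERN1 arrays read 9.43 and 9.42 in MM1.S and 9.39 and 9.50 in NCI-H929, overlapping, and the difference was 0.02 ± 0.0954 (interval −0.20 to 0.24; limma, adjusted p = 0.896). SEL1L had one of 0.06 ± 0.0925 (adjusted p = 0.662). The gap of DERL1 hardly changed although its call was lost. Its means in MM1.S and NCI-H929 were 10.77 and 10.485 with scramble and 10.77 and 10.5 with shSIRT6. SEC63 (0.48), ERO1B (0.59), CREB3L2 (0.38) and SEC61B (−0.37) were called with shSIRT6 and not with scramble (adjusted p = 0.00408, 0.00739, 0.0175 and 0.0214). The change of a line difference between constructs is the interaction above, which none of these genes passed.

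Other genes of the ER, in 6 fixed lists, set the members in their surroundings. Of 17 further genes of the unfolded protein response 11 were tested, and 3 fell in MM1.S: TXNIP (−1.17 ± 0.104), TRIB3 (−1.17 ± 0.111) and DDIT3, the death-linked factor CHOP (−1.20 ± 0.122; limma, adjusted p = 0.00806, 0.00954 and 0.0107). Of all genes tested, 1.12% were called lower in MM1.S. The list was chosen with earlier results of these data known, so its count beside that share is not a test. DDIT3 read 6.72 and 6.64 against 5.34 and 5.63 in MM1.S, and 5.23 and 5.14 against 6.43 and 6.53 in NCI-H929, where it rose by 1.29 ± 0.122 (adjusted p = 0.0484). That rise lost its call in 14 of 16 alternatives, among them each fit with 1 of the 8 arrays left out (1.25 to 1.34), while the falls of the 3 genes in MM1.S lost theirs in 5 of 16, the MM1.S arrays alone and each fit without 1 MM1.S array. The differences of ERN1 had the signs of those of DDIT3, negative in MM1.S and positive in NCI-H929, without passing the test. The interaction was called for DDIT3 (2.49 ± 0.173), TRIB3 (2.15 ± 0.157) and TXNIP (1.32 ± 0.147; limma, adjusted p = 0.00447, 0.00497 and 0.0323), and was lost in 1, 5 and 9 of 15 alternatives. It was called for 0.204% of all genes tested. XBP1, whose mRNA ERN1 splices, had differences of 0.025 in MM1.S and −0.045 in NCI-H929, neither called, and these values do not separate its spliced form. EIF2AK3 was not called with the hairpin either, at 0.08 and 0.18.

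Targeting and translocation outside the members gave 1 call in MM1.S among 21 tested of 24, where 1.33% of all genes were called. SRP54, the GTPase of the signal recognition particle, fell from 7.63 and 7.57 to 7.09 and 6.95 (−0.58 ± 0.0974, limma, adjusted p = 0.0452), while in NCI-H929 its difference was 0.035 ± 0.0974. The call of SRP54 was lost in 12 of 16 alternatives, among them each fit with 1 of the 8 arrays left out (−0.65 to −0.51). The list's medians were −0.025 and −0.055. No gene was called in either line among 13 tested of 23 other folding enzymes (medians −0.085 and −0.085), 10 of 20 genes of the oligosaccharyltransferase and glycan trimming (−0.073 and −0.12), 17 of 22 other degradation factors (−0.01 and −0.095) or 16 of 25 genes of export from the ER (−0.23 and −0.15). In MM1.S the lowest adjusted p of these were 0.0636 for NPLOC4, a cofactor of VCP that lay higher by 0.54, and 0.0674 for ERLEC1, a lectin of degradation, at −0.44. In the export list 15 of 16 genes were negative in each line, and the lowest p belonged to SEC23B (−0.48) and STX5 (−0.44) in MM1.S and to KDELR3 (−0.53) and TMED9 (−0.30) in NCI-H929 (limma, adjusted p = 0.0876, 0.0889, 0.205 and 0.248).

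**Figure D5:**
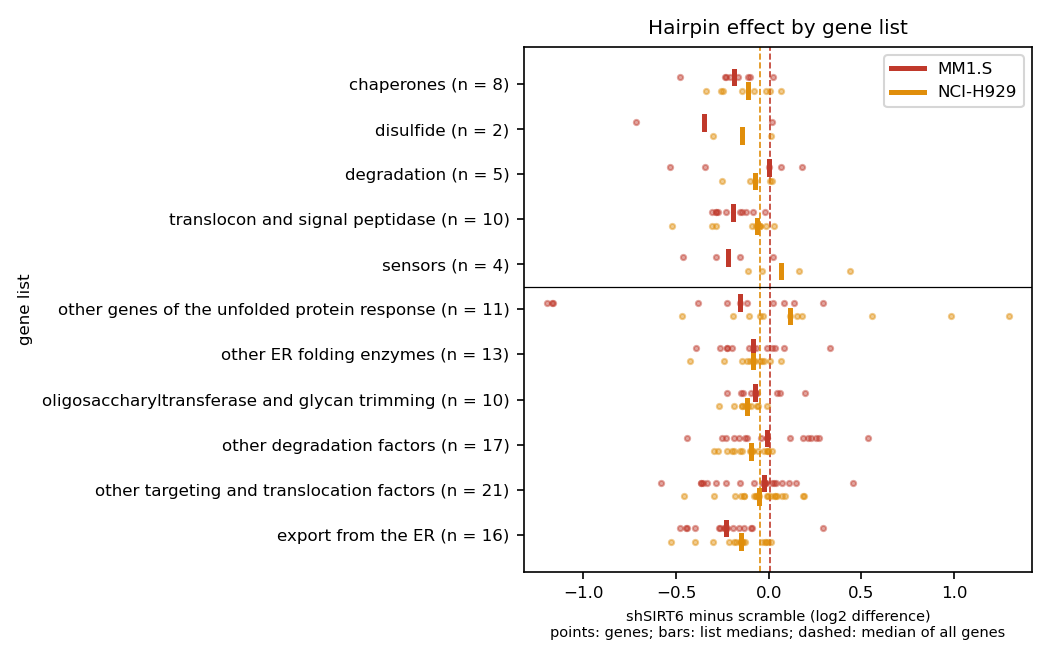
Difference of shSIRT6 minus scramble (log2) of each tested gene (points) in the 5 groups of members, above the line, and the 6 lists of other ER genes, for MM1.S (red) and NCI-H929 (orange), with list medians as bars and the medians of all genes dashed. The translocation genes all lie below 0 in MM1.S, and the widest spread in both lines belongs to the other genes of the unfolded protein response.

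Averaged over both lines no gene of these 6 lists was called (0 by limma), with TXNIP (−0.51, adjusted p = 0.0665) and ERLEC1 (−0.33, adjusted p = 0.0772) lowest in p. Between the lines with scramble, 8 of 11 other genes of the unfolded protein response were called, 4 higher and 4 lower in NCI-H929. EIF2AK3 and XBP1 were higher (1.27 and 0.66, limma, adjusted p = 0.000106 and 0.0013), while TRIB3 and DDIT3 were lower (−1.73 and −1.50). Of the other folding enzymes 5 of 13 were called, 4 of them higher, with ERP29 at 1.11 and SELENOM at 1.76. The glycan list had 5 higher and 1 lower of 10, with DPAGT1 at 0.86 and PRKCSH at 0.83. Other degradation factors had 4 higher and 4 lower of 17, with AUP1 at 0.79 and NGLY1 at 0.65. Among targeting factors 6 were higher and 4 lower of 21, with EMC10, a subunit of the ER membrane complex, at −2.16 and SRP9 at −0.94. Export genes gave 6 higher and 3 lower of 16, with SAR1A at −1.08 and KDELR1 at 0.81. As for the members, these counts stand beside 38.3% of all genes called in this comparison.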

How the data were processed

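RNA of 8 cell line samples was hybridised to Human Gene ST arrays. The deposited values are log2 levels that the authors made with RMA, and the submitters' processing notes also name the Transcriptome Analysis Console and hg19. No version is given in the sources used here. The table has 48226 rows, of which 16098 carry 1 gene symbol, none carries several (0) and 32128 are unnamed here. For 779 genes with over 1 row, including HYOU1 and SEC62, the row of highest mean was kept. Genes above the 30th percentile of row means, a log2 level of 3.045, were tested. A mean for each of the 4 groups was fitted to all 8 arrays with limma 3.58.1 (lmFit, contrasts.fit, eBayes; R 4.3.3), with 4 residual and 3.43 prior degrees of freedom, and p-values were adjusted by Benjamini-Hochberg over all 12734 genes. Intervals are 95% intervals of the moderated test. Differences are on the log2 scale, each with limma's standard error (SE). Apart from the cell type markers, where the comparison is only rough, levels of different rows are not compared, since probes differ. The number of arrays limits the precision.

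The members and lists were chosen with earlier results of these data known, so counts set beside all genes are descriptive. Named were the called members with the lowest p, at most 8 per comparison (the 4 lowest where none was called), the sensors in the hairpin comparisons, and the 2 lowest of each other list; the other members were named as an account of all 29, and other genes after their values were seen. The ER stress response element was fixed with the design, and element II and the UPR core were chosen later. Alternatives were no filter, a 50th percentile filter, quantile or cyclic loess normalization, the mean of a gene's rows, a variance trend, the replicate number as a block, each line alone and leaving out each array. The fitting code was tested on simulated data.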

Additional observations from a re-analysis of the deposited data

Results flagged for a closer look

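The hairpin effect differed between the lines by limma's test of the interaction for 3 of 11 tested genes of the unfolded protein response outside the members. Of all genes tested, 0.204% were called in this test. Because the list was chosen with earlier results of these data known, the 2 shares do not test the list. The differences of the 3, NCI-H929 minus MM1.S, were 2.49 for DDIT3, 2.15 for TRIB3 and 1.32 for TXNIP. They lost their calls in 1, 5 and 9 of 15 alternatives and kept their sign in all 15.

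For 4 members the arrays of the constructs did not overlap in either line, and the lines differed in direction. The share of all genes that did so was not counted, so whether 4 members is unusual cannot be told. The test of the difference between the lines was run for each of the 4 and passed for none. ERN1 lay lower with the hairpin in MM1.S and higher in NCI-H929, with a difference of effects of 0.90 (limma, adjusted p = 0.0712). CREB3L2 did the same at 0.32 (adjusted p = 0.359). VCP lay higher in MM1.S and lower in NCI-H929, at −0.28 (adjusted p = 0.38). CALR did so too at −0.105 (adjusted p = 0.748), although in MM1.S its arrays of different constructs were at most 0.03 apart.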

How the results depend on the processing

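Calls of members on the hairpin were sensitive to the processing, and the cause was not tested. In MM1.S 2 members were called as reported. No filter, quantile normalization, cyclic loess and the MM1.S arrays alone each called 0, the 50th percentile filter 3, the replicate number as a block 1, and the variance trend 11. Each fit that left out 1 array called 0 members (0 to 0), and a lone array there was assumed to vary like the other groups. SEL1L lost its call in 13 of 16 alternatives and ERO1B in 12 of 16. The variance trend called 2 members in NCI-H929, 11 in the mean, 4 in the interaction (1 with the 50th percentile filter) and 20 between the lines with scramble, beside 1.52%, 7.15%, 3.38% and 41.8% of all genes. The last count stood against 11 as reported and 8 to 10 with an array left out. With shSIRT6 the lines gave 12, and 10 to 12 with an array left out. Over all genes, the MM1.S hairpin called 169 genes as reported, 314 with the 50th percentile filter, 953 with the trend, 78 with the block and 0 on the MM1.S arrays alone, and NCI-H929 called 3 as reported and 194 with the trend. The replicate numbers did not pair the arrays (correlations of −0.041 to 0.077). Signs near 0 turned for ATF6B in NCI-H929 (0.027 with quantile normalization, 0.045 with cyclic loess, −0.09 to 0.02 with an array left out) and in the mean (0.033, 0.055 and −0.033 to 0.022), for ERN1 in the mean (0.016, 0.050 and −0.038 to 0.017), for CREB3L2 in the mean (−0.018 to 0.028 with an array left out) and for ATF6B in MM1.S (0.00 to 0.05). DDIT3 lost its call in NCI-H929 in 14 of 16 alternatives, SRP54 its call in MM1.S in 12 of 16, and the interaction was lost for TXNIP in 9, TRIB3 in 5 and DDIT3 in 1 of 15. Of 1268 gene values under alternatives 1135 kept their direction and their side of the threshold, 81 lost a call, 32 gained one and 20 changed sign.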
